A study of Homo sapiens with 4 samples.

Results

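UPP1, which encodes uridine phosphorylase 1, and 8 further genes of pyrimidine salvage and synthesis were followed in HCT116, a long-established line of human colon cancer cells. The members were UPP1, UPP2, TYMP, UCK1, UCK2, UMPS, CAD, DHODH and CDA, and they were taken by gene symbol from the authors' deposited ratio table, where all 9 genes were found on 17 of 42450 probe sets. A probe set is a group of short array probes for the same transcript. The group was chosen because the UPP1 signal was over 2-fold higher on both plasmid arrays than on both RNA arrays, so that contrast describes UPP1 and tests nothing.

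The cells were transfected in 4 ways, with 1 array of total RNA for each: the empty plasmid pcDNA3.1 (vector), pcDNA3.1 carrying pri-miR663a (overexpression), a scrambled single-stranded RNA (scrambled RNA) and a single-stranded inhibitor of miR663a (inhibitor). The study searched for genes lowered by miR663a and raised by its inhibitor. All 4 groups are therefore transfected cells, and none is untransfected. The sample titles of the RNA arrays read opposite to their other labels, which were used here, and with the titles each inhibitor ratio would turn its sign. The authors' deposited ratios headed as inhibitor over control follow the labels used here, within 9.83e-05 in log2 on shared probe sets. The share of cells transfected, the time to harvest and the level of mature miR663a were not analysed here.

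Cells obtain pyrimidine nucleotides by 2 routes. De novo synthesis builds uridine monophosphate (UMP) from glutamine, bicarbonate, aspartate and phosphoribosyl pyrophosphate through CAD, DHODH and UMPS. Salvage takes up ready-made nucleosides, which the uridine-cytidine kinases UCK1 and UCK2 phosphorylate, while the phosphorylases UPP1, UPP2 and TYMP split nucleosides into a free base and a sugar phosphate and CDA turns cytidine into uridine. In colon tumours these enzymes are known for handling fluoropyrimidine drugs, whose conversion to active nucleotides can involve UPP1, TYMP and UMPS.

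The microRNA that was overexpressed or inhibited is shown because both treatments are defined by it. Its mature sequence is given from RefSeq (GRCh38.p14, chr20:26208243-26208264, minus strand), with the seed, bases 2 to 8, in capitals.
hsa-miR-663a: aGGCGGGGcgccgcgggaccgc
Of its 22 bases, 20 are G or C.

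Levels on the single arrays were available for 7 of the 17 probe sets, which cover UPP1, TYMP, UMPS, CAD and CDA. Levels are log2 signals, and the array medians lay between 4.12 and 4.19. Of these 7, 5 lay above the array median on all 4 arrays and 2 (UMPS 202707_at and CAD 1564084_at) below it on all 4. For the other 10, which include every probe set of UPP2, UCK1, UCK2 and DHODH, only the authors' ratios and a score column were available. Members with levels had probe set numbers from 202706 to 205627, or 1564084, and those without had numbers from 209825 to 239800. Having a level thus went with the number here, so probe sets with levels need not represent all. With 1 array per group there is no spread between replicates, and no test or p-value could be made for any difference between groups.

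UPP1 cleaves uridine to uracil and ribose 1-phosphate, in a reaction that can run in both directions. Its only probe set, 203234_at, is aligned in the authors' deposited table to chr7:48128861-48148015 on the plus strand, with the genome build unstated. The UPP1 log2 signal was 9.28 on the vector array, 9.21 with overexpression, 8.07 with scrambled RNA and 7.94 with the inhibitor. Both plasmid arrays were high and both RNA arrays low, and the groups of 2 did not overlap.

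The mean difference for UPP1 between plasmid and RNA arrays was 1.24 on the log2 scale, or 2.36-fold. The single differences were 2.32-fold for vector over scrambled RNA, 2.53-fold for vector over inhibitor, 2.21-fold for overexpression over scrambled RNA and 2.40-fold for overexpression over inhibitor. Differences inside each kind of transfection were small by comparison, with UPP1 1.05-fold lower with overexpression than with vector and 1.09-fold lower with the inhibitor than with scrambled RNA. The UPP1 difference with overexpression turned its sign after quantile normalization. Whether more cells carried UPP1 RNA or each cell carried more cannot be told apart in bulk RNA. The nucleic acid transfected and any other step in which both pairs of cultures were handled apart cannot be told apart either.

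By the rule's own measure, the lower plasmid array over the higher RNA array, 6 of the 16381 probe sets with levels passed 2-fold (0.0366%), and 0 passed it in the opposite direction. They were UPP1, CXCL8, CCL20, MCPH1, ETS1 and 1 probe set without a name. The nearest value inside the threshold was 2.07-fold for ETS1, and the nearest outside was 1.90-fold for CXCL1. Among the 1759 probe sets with a mean signal within 1 log2 unit of UPP1, 2 passed (0.114%), UPP1 itself and the interleukin-8 gene CXCL8. These shares describe how the member was chosen, and probe sets without levels could not be counted. By the mean difference, 8 of the 16381 reached 2-fold, against 31 of all 42450 with the sign unknown, so the named genes are not a full list.

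**Figure D1:**
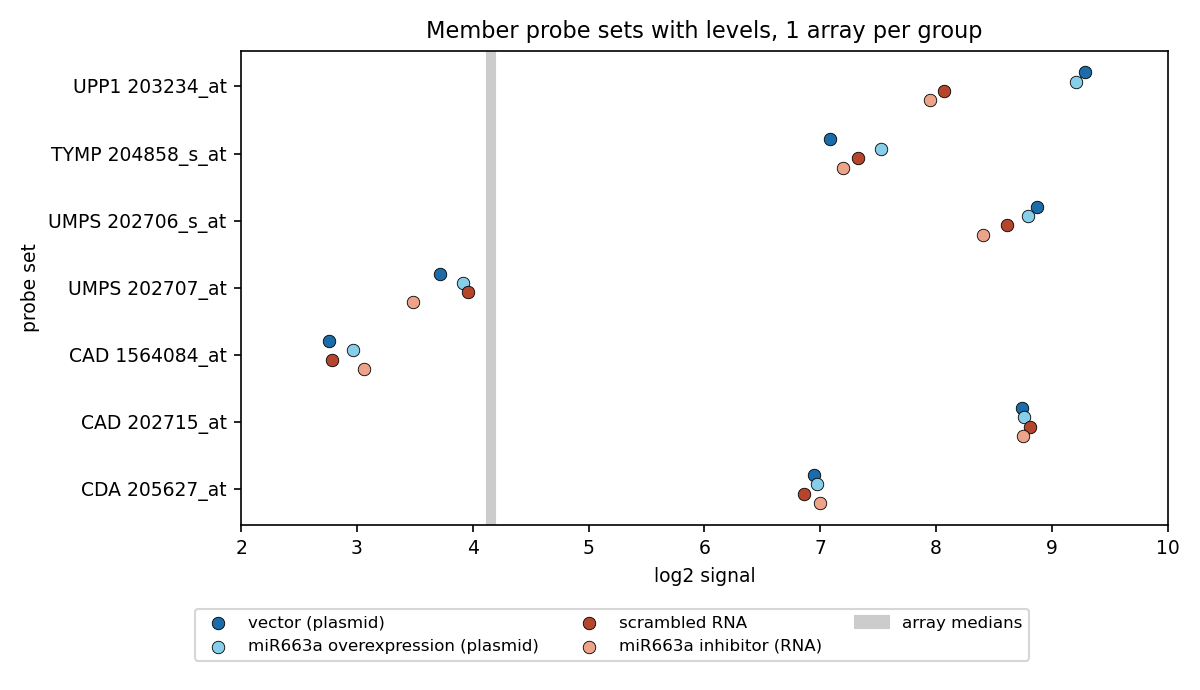
Log2 signal (x axis) of the 7 member probe sets with levels (y axis), with 1 point per array, blue for plasmid and red for RNA transfections, and the array medians as a grey band. UPP1 has its plasmid points at 9.28 and 9.21 and its RNA points at 8.07 and 7.94, while the points of CAD 202715_at lie between 8.74 and 8.81; positions of different probe sets are not comparable as amounts.

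UPP2, the paralogue of UPP1 that is known mainly from liver, had ratios only. Its probe set 233155_at had an authors' deposited table ratio of 1.36 for overexpression over vector and 1.21 for inhibitor over scrambled RNA. The second, 231376_at, had 1.04 and 0.825 in the same table, and it aligns 452 bases beyond the end of the first. The UPP2 probe sets thus lay on opposite sides of 1 with the inhibitor.

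For probe sets without levels, the size of the difference between plasmid and RNA means was computed from the authors' deposited ratios and score, which leaves its sign unknown. For UPP2 this size was 0.25 on 233155_at and 0.19 on 231376_at, against 1.24 for UPP1. The plasmid and RNA arrays overlapped on 233155_at and were apart by 0.02 on 231376_at.

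TYMP, thymidine phosphorylase, also known as platelet-derived endothelial cell growth factor, splits thymidine and deoxyuridine. On 204858_s_at its log2 signal was 7.08 with vector, 7.52 with overexpression, 7.33 with scrambled RNA and 7.20 with the inhibitor. The overexpression array was the highest and the vector array the lowest, so plasmid and RNA arrays overlapped and their means differed by 0.04. The difference of 0.44 between overexpression and vector, 1.35-fold, was not seen at that size on 217497_at, which lies within the span of the first and had an authors' deposited table ratio of 1.04. With the inhibitor the ratios were 0.916 and 1.07 in that table, on opposite sides of 1.

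CDA, cytidine deaminase, had 1 probe set. Its log2 signal was 6.95 with vector, 6.97 with overexpression, 6.86 with scrambled RNA and 7.00 with the inhibitor. All 4 arrays lay close together, with the lowest and the highest value both on RNA arrays. Its differences were 0.02 for overexpression over vector, 0.14 for inhibitor over scrambled RNA and 0.03 between plasmid and RNA means.

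The kinases that return uridine and cytidine to monophosphates had ratios only. For UCK1 the authors' deposited table gave 1.02 on 223141_at and 1.04 on 223142_s_at with overexpression, and 0.881 and 0.839 with the inhibitor. UCK1 was the only member gene with several probe sets that lay on the same side of 1 in both comparisons. UCK2, the kinase that is often the more abundant in tumours, had 0.960 and 0.926 on its single probe set in the same table. The size of the plasmid against RNA difference was 0.28 and 0.10 on the UCK1 probe sets and 0.07 on that of UCK2. Plasmid and RNA arrays were apart only on 223141_at of UCK1 among these 3 kinase probe sets.

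CAD carries the enzyme activities that open de novo synthesis, carbamoyl-phosphate synthetase, aspartate transcarbamylase and dihydroorotase, on 1 polypeptide. On 202715_at the CAD log2 signal was 8.74 with vector, 8.76 with overexpression, 8.81 with scrambled RNA and 8.75 with the inhibitor. The arrays differed little, and the means of plasmid and RNA arrays differed by -0.03. The dim probe set 1564084_at, aligned at the end of the gene, had 2.76, 2.97, 2.78 and 3.06 in the same order. On that probe set both miR663a treatments were higher than their controls, by 0.21 and 0.28, at signals below the median of every array.

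DHODH, the enzyme of the inner mitochondrial membrane that oxidises dihydroorotate to orotate, had 2 probe sets aligned to the same span. The authors' deposited table gave 213631_x_at ratios of 1.17 with overexpression and 1.10 with the inhibitor, and 213632_at ratios of 1.11 and 0.956. The size of the plasmid against RNA difference was 0.38 on 213631_x_at, where the groups did not overlap, and 0.08 on 213632_at, where they did. The first is the largest such size among members after UPP1, and it was not shared by the other probe set of the gene.

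UMPS, the enzyme with orotate phosphoribosyltransferase and orotidylate decarboxylase activity that makes UMP, had 4 probe sets. On 202706_s_at its log2 signal was 8.87 with vector, 8.80 with overexpression, 8.61 with scrambled RNA and 8.40 with the inhibitor. Both plasmid arrays lay above both RNA arrays, as for UPP1, but the mean difference was 0.33, or 1.26-fold. On the dim probe set 202707_at the values were 3.72, 3.92, 3.96 and 3.48 in the same order, and plasmid and RNA arrays overlapped.

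The remaining UMPS probe sets had ratios only. The size of their plasmid against RNA difference was 0.37 on 215165_x_at and 0.22 on 239800_at, and the groups were apart on both. The probe set 239800_at aligns 4045 bases past the end of the widest UMPS alignment in the authors' deposited table, so the transcript it detects is uncertain. In that table the overexpression ratios were 0.950 on 202706_s_at, 1.15 on 202707_at, 0.928 on 215165_x_at and 1.02 on 239800_at. With the inhibitor these probe sets had ratios of 0.867, 0.720, 0.906 and 1.04, of which 0.720 was the lowest inhibitor ratio of any member and came from the dim probe set.

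Across the comparison of overexpression with vector, 0 of 17 member probe sets differed by 1.5-fold or more in either direction, where 3.53% of all 42450 did. The members' ratios ran from 0.928 to 1.36, with a median log2 ratio of 0.06 against -0.02 over all probe sets. Above 1 were 13 of 17 (76.5%), against 46.7% of all. Centring used the array medians of the 16381 probe sets with levels, which lowered each log2 ratio by 0.07. It left 6 above and 11 below, against 35.1% of all above. The count of members above 1 thus changed with this shift, which is not the centre of the 42450 ratios themselves, at -0.02.

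Across the comparison of inhibitor with scrambled RNA, 0 of 17 differed by 1.5-fold or more, where 1.45% of all did. Ratios ran from 0.720 to 1.21, with a median log2 ratio of -0.11 against -0.02 over all probe sets. Below 1 were 11 of 17 (64.7%), against 54.3% of all, and centring left this split at 11 and 6. The pattern the study searched for, lower with overexpression and higher with the inhibitor, was shown by 0 of 17, against 28% of all probe sets. The opposite pattern was shown by 7 of 17 (41.2%) against 29.8% of all. After the same centring, with its shift from the probe sets with levels, the counts were 3 and 3 of 17, against 32.5% and 22.4% of all. The former were on TYMP 217497_at, UMPS 239800_at and CDA. Of the 6 member genes with several probe sets, 5 had all their deposited ratios on the same side of 1 with overexpression and 1 had so with the inhibitor.

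**Figure D2:**
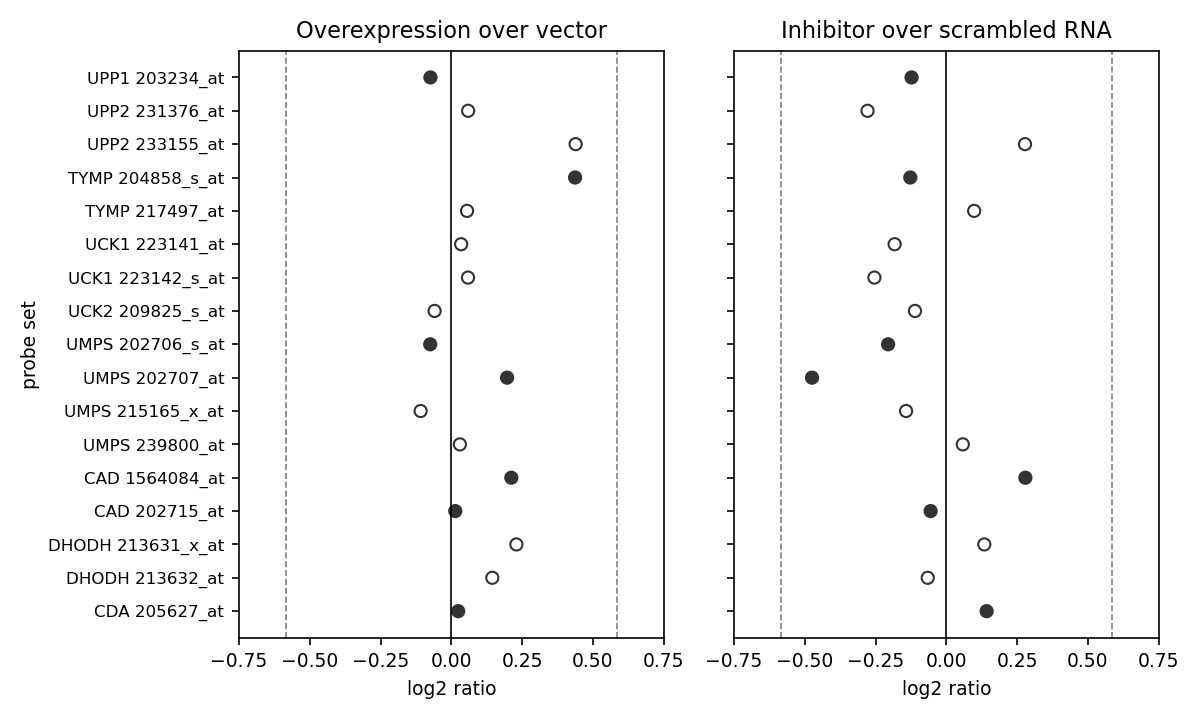
Log2 ratio (x axis) of the 17 member probe sets (y axis) in the authors' deposited table for overexpression over vector (left) and inhibitor over scrambled RNA (right). Filled points also have levels, open points have ratios only, dashed lines mark 1.5-fold, and every point lies between them.

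Between plasmid and RNA arrays, 1 of 17 member probe sets, UPP1, differed by 1.5-fold or more, where 0.956% of all 42450 did. This contrast chose UPP1, so nothing is read from its count. The other 16 had sizes from 0.03 to 0.38, the largest being 1.31-fold, and the median over all 17 was 0.10 against 0.11 over all probe sets. Plasmid and RNA arrays did not overlap for 6 of these 16 (37.5%), against 36.9% of all probe sets, which is close to the background. Only UMPS 202706_s_at among these 6 had levels, and its plasmid arrays were the higher ones. Between the control arrays alone, 1 of 7 differed by 1.5-fold (2.43% of 16381), and this was UPP1, whose difference there was fixed by the rule that chose it.

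**Figure D3:**
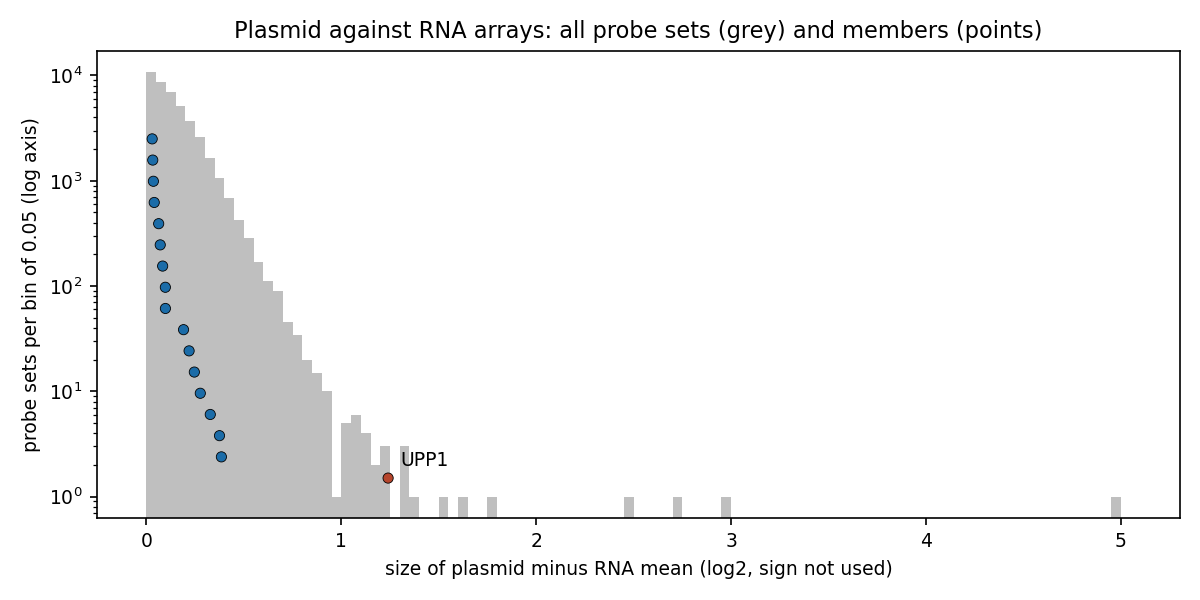
Histogram of the size of the difference between plasmid and RNA means (x axis, log2, sign not used) over 42450 probe sets (y axis, log scale), with the 17 member probe sets as points whose height only spreads them out. UPP1 is at 1.24, where 12 probe sets lie further out, and the other members lie at or below 0.38.

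Linked pathway genes were described from 7 lists of 71 genes, of which 70 had ratios on 154 probe sets. At the 1.5-fold threshold, overexpression had 1 of 154 higher (0.649%) and 5 lower (3.25%), against 1.77% and 1.76% of all probe sets. With the inhibitor 2 were higher (1.3%) and 1 was lower (0.649%), against 0.737% and 0.714%. Between plasmid and RNA arrays 0 of 154 reached 1.5-fold. Of the listed genes 36 had a level above the median on all 4 arrays, each taken by the brightest of its probe sets with levels. Many genes had further probe sets with ratios only, whose brightness is unknown. Their plasmid minus RNA differences ran from -0.24 to 0.43 with a median of -0.03, and 8 had both plasmid arrays higher and 7 both RNA arrays higher, where each order was found for 19.5% of the 7736 probe sets above the median.

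Next to UPP1 in the salvage route stand the transporters that carry uridine. SLC29A1, the equilibrative nucleoside transporter ENT1, had a plasmid minus RNA difference of -0.02. SLC29A2, which encodes ENT2, had a log2 signal of 7.37 with vector, 7.23 with overexpression, 7.10 with scrambled RNA and 6.93 with the inhibitor. Its plasmid arrays were above its RNA arrays by a mean of 0.29, in the order seen for UPP1, while the other 4 probe sets of the gene had sizes from 0.02 to 0.19.

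PGM2, which interconverts ribose 1-phosphate and ribose 5-phosphate and so uses the sugar product of UPP1, had sizes of 0.06, 0.08 and 0.10 between plasmid and RNA arrays on its probe sets. PNP, which splits purine nucleosides as UPP1 splits uridine, had log2 signals of 9.76, 9.78, 9.79 and 9.56 on the vector, overexpression, scrambled RNA and inhibitor arrays. The inhibitor array was the lowest for PNP, by 0.23 against scrambled RNA, and plasmid and RNA arrays overlapped.

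Among kinases and CTP synthesis, NME6, a member of the nucleoside diphosphate kinase family, had the highest plasmid minus RNA difference of the 36 genes. Its log2 signal was 7.40 with vector, 7.32 with overexpression, 6.95 with scrambled RNA and 6.91 with the inhibitor. CTPS1, which makes CTP from UTP, had 8.99, 8.75, 8.63 and 8.59 in the same order, a mean difference of 0.26. Both had their plasmid arrays above their RNA arrays, and both stayed under 1.5-fold.

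Genes of deoxypyrimidine and thymidylate synthesis make the building blocks that DNA needs. Of the 10 above the median, 8 were lower with overexpression than with vector, against 60.3% of all probe sets above the median, and 9 after centring, against 73%, with a median of -0.13 against -0.05. These counts were not repeated after quantile normalization. Among members, that scaling moved the overexpression difference of UMPS 202706_s_at from -0.07 to 0.06 and of CAD 202715_at from 0.01 to 0.16. It lowered the difference on the dim UMPS 202707_at and CAD 1564084_at. DCK, deoxycytidine kinase, had differences of -0.43 with overexpression and 0.20 with the inhibitor, and DCTD, dCMP deaminase, had -0.29 and 0.10, though its other probe sets had inhibitor ratios of 0.889 and 0.904 in the authors' deposited table. TYMS, thymidylate synthase itself, was at -0.11 and -0.0037, and its other probe sets had ratios of 0.923 and 1.12 with overexpression and 0.884 and 1.11 with the inhibitor in that table.

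In the other lists, MTAP of purine salvage, which splits methylthioadenosine, had differences of -0.55 with overexpression and 0.18 with the inhibitor. Its other probe sets had overexpression ratios from 0.822 to 1.31 in the authors' deposited table. Of these, 211364_at ran the opposite way, with 1.31 and 0.922. PRPS2, a phosphoribosyl pyrophosphate synthetase, was at -0.33 and 0.05. ASNS, asparagine synthetase, was at -0.28 and 0.11, while its other probe set ran the opposite way, with ratios of 1.34 and 0.857 in the authors' deposited table. None of these genes reached 1.5-fold in either comparison on the probe set used.

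The probe sets past 1.5-fold are named here after their values were seen. In the authors' deposited table, TK2, mitochondrial thymidine kinase, was 1.72 with overexpression on 230313_at, while its other 4 probe sets ran from 0.757 to 1.02. The ratios below the threshold with overexpression were 0.658 for the ribonucleotide reductase subunit RRM2B, 0.556 and 0.640 for the nucleotidase NT5E, 0.614 for adenosine kinase, ADK, and 0.666 for the glutamate transporter SLC1A3. The same ADK probe set, 204120_s_at, had the highest inhibitor ratio of the lists, 1.90, but the brighter 204119_s_at of that gene had 1.09 and 0.947. The other inhibitor ratios past 1.5-fold were 1.51 on 217134_at of MTAP and 0.659 on 205531_s_at of GLS2. The GLS2 value is from a dim probe set, since even the brightest one of that gene with levels read 3.40 or less. In TK2, ADK, MTAP, GLS2 and SLC1A3 the probe sets of a gene did not share these values.

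**Figure D4:**
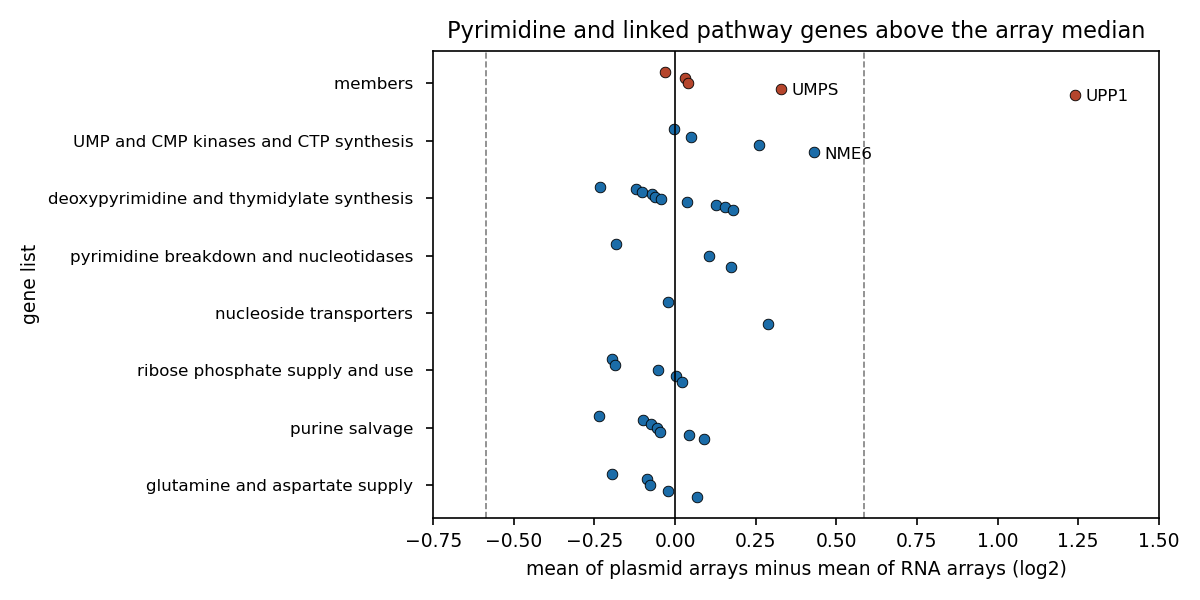
Mean of the plasmid arrays minus mean of the RNA arrays (x axis, log2) for member genes (red) and 36 genes of 7 linked lists (blue), with 1 point per gene above the array median and dashed lines at 1.5-fold. UPP1 at 1.24 is the only point past a dashed line, and UMPS at 0.33 and NME6 at 0.43 are the next highest.

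The genes with a pattern most like UPP1 were ranked by the distance between the 4 centred log2 signals. The 7062 probe sets ranked had levels above the array median on all arrays and were named as a single gene other than UPP1. Probe sets with ratios only could not be ranked. Nearest were CXCL1, a neutrophil-attracting chemokine, at a distance of 0.29, MCPH1, a protein of chromosome condensation, at 0.30, and TNFAIP3, the ubiquitin-editing protein A20, at 0.32. PRKAB1, a subunit of AMP-activated kinase, was at 0.40, the AP-1 subunit JUN at 0.43 and THBS1, thrombospondin, at 0.46. ZNF202 at 0.48, WDR20 at 0.52, GADD45A, a stress-induced protein, at 0.53 and CPA4, a carboxypeptidase, at 0.53 completed the 10.

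All 10 had both plasmid arrays above both RNA arrays, which the measure of likeness selects. CXCL1 had log2 signals of 6.66 and 6.60 on the vector and overexpression arrays and 5.58 and 5.68 on the scrambled RNA and inhibitor arrays. GADD45A had 11.5 and 11.4 against 10.5 and 10.8. Mean differences ran from 0.72 for CPA4 to 1.35 for MCPH1, around the 1.24 of UPP1. A likeness over 4 arrays rests on very few values, and ranking by Pearson's r in place of distance gave a list that shared 0 of the 10 genes.

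**Figure D5:**
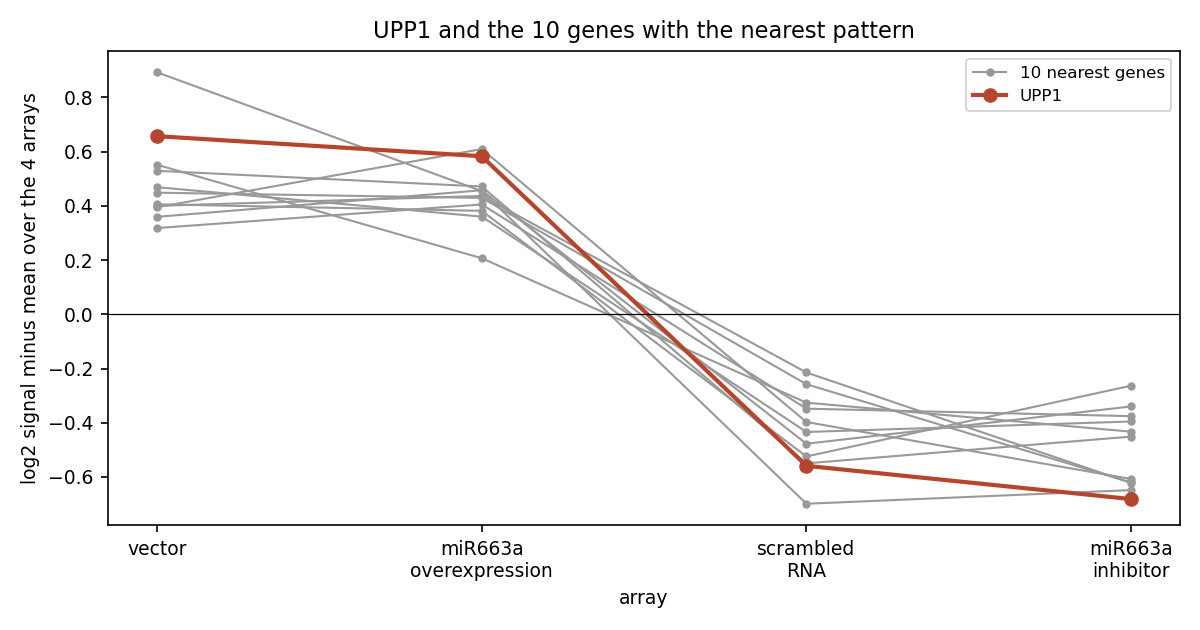
Log2 signal minus the mean over the 4 arrays (y axis) for UPP1 (red) and the 10 nearest genes (grey) on each array (x axis), with lines joining the values of a gene. All 11 profiles are above 0 on both plasmid arrays and below 0 on both RNA arrays, as the ranking selects.

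As a check of the cell type, EPCAM, KRT18, KRT19 and CDH1 of the colon epithelial markers had log2 signals of at least 9.17 on every array. CDX1, CDX2 and VIL1 were dimmer, between 4.59 and 6.39, and CEACAM5 and LGALS4 lay below the median on all arrays, at 3.66 or less. Of the epithelial markers with levels 7 of 9 lay above the median on all arrays, against 3 of 6 for leukocytes, 2 of 6 for fibroblasts, 1 of 5 for endothelium and 47.2% of all 16381 probe sets. The fibroblast marker COL1A1 read 7.48 to 8.05, above CDX1, CDX2 and VIL1. Each marker was taken by its brightest probe set with levels, and several, PTPRC and PECAM1 among them, had others with ratios only. No marker of these 3 other cell types was called detected or absent, since detection calls were not used. Summed linear signals were 21499 to 22435 on plasmid and 21579 to 22140 on RNA arrays for epithelium, 114 to 144 and 129 to 137 for leukocytes, 260 to 311 and 285 to 345 for fibroblasts, and 65.6 to 71.1 and 72.5 to 76.0 for endothelium. The endothelial sums were lower on both plasmid arrays, opposite to UPP1, but CDH5, KDR and TEK lay below the median on all 4 arrays. The cells are those of 1 line, so these sums are not read as a share of another cell type.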

How the data were processed

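Total RNA of 4 transfections was hybridised to Affymetrix arrays, 1 per group, and p-values were not computed. The authors deposited log2 signals of 16381 probe sets. The submitters' processing notes name MAS5, while the sources used here give neither normalization nor genome build. A second table deposited by the authors holds linear ratios for 42450 probe sets, 12704 of them shared, per the file headers overexpression over vector and inhibitor over scrambled RNA. Its deposited score column equalled the summed squares of the 4 log2 values about their mean, within 0.000107 on shared probe sets. The size of the plasmid against RNA difference follows as the square root of the score minus half-squares of both log2 ratios, within 0.00124 of the levels there. This was tested on simulated data.

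Genes were named by the file's symbol, updated through RefSeq (GRCh38.p14). Listed genes were taken by the brightest of their probe sets with levels, where it lay above the array median on all 4 arrays. The text names all members, up to 3 genes per list and comparison, and the 10 nearest to UPP1. A few genes taken by this rule are not reported here. PGM2 and TYMS, and details of single probe sets, were chosen after their values were seen. The members and lists were chosen with earlier results of these data known. Alternatives were a 2-fold threshold, median centring, quantile normalization, an offset of 64, a filter on dim probe sets, the turned RNA labels and Pearson's r. The number of arrays limits precision. Software was Python 3.11.15 with matplotlib 3.10.9, pandas 2.3.3 and numpy 2.4.6.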

Additional observations from a re-analysis of the deposited data

How the results depend on the processing

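The counts of member probe sets past 1.5-fold, 0 for overexpression, 0 for the inhibitor, 1 between plasmid and RNA arrays and 1 between the controls, were the same at 2-fold, after median centring, quantile normalization, an offset of 64, and among probe sets above the array median. Counts of 0 could not have changed at 2-fold or with the filter. Both counts of 1 are UPP1, whose passing of 2-fold was fixed by the rule that chose it. The count for the inhibitor could not change with the RNA labels turned as in the titles, since this only inverts each ratio. Quantile normalization, the offset and the filter could be run only on the 7 probe sets with levels or fewer. The UPP1 difference of 1.24 was 1.24 after both scalings and 1.06 with the offset. UPP1 had a single probe set, so the planned comparison with its other probe sets was not run. The list of genes most like UPP1 shared 0 genes with the list by Pearson's r, which ignores the size of the difference. Centring turned the sign of 7 of 17 overexpression ratios and 0 of 17 inhibitor ratios, with a shift of 0.07 for overexpression. That shift came from the probe sets with levels, while the median log2 overexpression ratio over all probe sets was -0.02. Quantile normalization turned the sign of 2 of 7 overexpression differences, UPP1 and UMPS 202706_s_at, the latter from -0.07 to 0.06. It turned 0 of 7 for the inhibitor. No paired analysis was possible because each group has 1 array. Signals below the array median limit UMPS 202707_at and CAD 1564084_at.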

Other observations

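Among the linked pathway genes, 21 had at least 3 probe sets, and in 4 of them (19%) every probe set was lower with overexpression and higher with the inhibitor, where 179 of 5457 genes with at least 3 probe sets (3.28%) showed this. NT5E, PGM2 and SLC38A2 were among them, and the pattern was looked for after the values had been seen. The 3.28% covers genes of any signal, and neither share was matched for signal or repeated after centring or quantile normalization. No enrichment of the lists is read from them. For NT5E, the ecto-5′-nucleotidase CD73 that releases nucleosides outside the cell, the authors' deposited table gave overexpression ratios of 0.556, 0.640, 0.792 and 0.926 and, in the same order, inhibitor ratios of 1.15, 1.49, 1.23 and 1.10. For SLC38A2, a transporter of neutral amino acids including glutamine, the overexpression ratios in that table ran from 0.812 to 0.859 and the inhibitor ratios from 1.09 to 1.11, and for PGM2 they ran from 0.829 to 0.958 and from 1.10 to 1.21. Probe sets of a gene share the same 4 RNA samples and are not replicates. With the titles of the RNA arrays in place of their other labels, the inhibitor ratios of these genes would turn, though the header of the deposited ratios follows the labels used.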
